A study of Mus musculus with 4 samples.

Results

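Imprinted genes are read from 1 parental copy only, under the control of methylation that is laid down in the germ line and differs between the copies. Several paternally expressed genes promote growth of the fetus and placenta in the mouse, while several maternally expressed neighbours restrain it, and many of both are strongly expressed before birth and shut down in most tissues afterwards. The fetal liver is a tissue in which such genes are known to be active, in hepatoblasts and in mesenchymal cells.

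The genes described here are 8 paternally expressed imprinted genes with roles in growth, Igf2, Dlk1, Peg3, Mest, Plagl1, Ndn, Sgce and Peg10, chosen by name. They are 8 of 33465 gene labels in a table of 37996 features that compares cells sorted by FACS from fetal liver with cells sorted from adult bone marrow of C57BL/6 mice. Each group had 2 RNA-seq libraries, prepared from total RNA of primary cells with the SMARTer low-input cDNA kit. The sources used here do not give the sort markers, the ages, the sex or the number of animals. They do not say that 2 libraries stand for 2 animals either, and the p-values then measure a spread that may be technical. The sequenced strain is a single inbred one, so the RNA does not tell which parental copy was read, and "paternally expressed" is background knowledge here.

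Gene labels in the authors' deposited table had closed up over rows without a label and had to be placed again. A label counts as placed where its posterior reaches 0.95, and 6 of the 8 genes were placed (Dlk1, Peg3, Mest, Plagl1, Ndn and Sgce, each at 0.99 or above). Igf2 and Peg10 were not tied to 1 row and are treated as not measured. Each group mean could be split into the reads of its 2 libraries, named deeper and shallower by their reads, since replicate numbers cannot be assigned to them. The bone marrow libraries held 858720 and 223361 recovered reads and the fetal liver libraries 2546089 and 868246, so that 1 read of the shallower bone marrow library is worth 2.86 normalized reads. Levels are normalized reads, read counts divided by the authors' size factors.

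The promoters of the genes with the highest levels are shown with their CpG dinucleotides, which can carry methylation. Whether the imprint of a gene lies in its window was not examined, and the windows differed in their number of CpG. Each window runs from 250 bases before to 50 bases after a RefSeq transcript start on GRCm38.p6, written 5′ to 3′ on the gene's strand, with every CG dinucleotide in capitals.
Plagl1, chr10:13090582-13090881, plus strand: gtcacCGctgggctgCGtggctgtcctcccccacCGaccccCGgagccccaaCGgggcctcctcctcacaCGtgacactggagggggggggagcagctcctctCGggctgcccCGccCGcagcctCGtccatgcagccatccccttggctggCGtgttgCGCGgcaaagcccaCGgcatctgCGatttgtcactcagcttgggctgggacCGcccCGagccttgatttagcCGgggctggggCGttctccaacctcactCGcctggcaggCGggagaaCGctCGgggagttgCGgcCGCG
Mest, chr6:30737800-30738099, plus strand: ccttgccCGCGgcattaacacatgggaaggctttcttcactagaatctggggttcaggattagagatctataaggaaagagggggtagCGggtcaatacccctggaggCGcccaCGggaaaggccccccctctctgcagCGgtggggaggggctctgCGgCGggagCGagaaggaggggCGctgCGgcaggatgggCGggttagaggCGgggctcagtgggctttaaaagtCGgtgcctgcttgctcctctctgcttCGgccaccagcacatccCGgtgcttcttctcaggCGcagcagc
Peg3, chr7:6730370-6730669, minus strand: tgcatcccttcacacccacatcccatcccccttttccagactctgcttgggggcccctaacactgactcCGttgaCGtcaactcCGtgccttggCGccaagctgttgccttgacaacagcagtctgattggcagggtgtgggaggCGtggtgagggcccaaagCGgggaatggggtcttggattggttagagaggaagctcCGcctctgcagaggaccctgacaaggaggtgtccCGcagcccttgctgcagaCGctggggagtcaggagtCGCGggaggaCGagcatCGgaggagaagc
Dlk1, chr12:109452573-109452872, plus strand: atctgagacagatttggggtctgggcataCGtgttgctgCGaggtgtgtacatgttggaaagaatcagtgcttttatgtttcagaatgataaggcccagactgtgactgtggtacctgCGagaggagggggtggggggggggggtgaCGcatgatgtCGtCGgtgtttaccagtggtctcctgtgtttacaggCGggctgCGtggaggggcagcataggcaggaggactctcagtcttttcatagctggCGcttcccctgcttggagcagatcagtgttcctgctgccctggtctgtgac
The Plagl1 window held 26 CG dinucleotides, more than 83.1% of 32851 RefSeq promoter windows. The Mest window shown held 17, Peg3 13 and Dlk1 9, against a median of 7 over all windows. Another Mest window, not shown, held 8. RefSeq had windows for 6 of the 8 genes, 11 windows in all. The letters TGCCGC, which the imprint-keeping factor ZFP57 is known to bind when methylated, were searched on both strands and were present in 4 of these 11 windows, 1 of Plagl1, 1 of Igf2 and 2 overlapping ones of Mest, against 11.6% of all windows. TGCCGC holds a CG itself, and the 11 windows had a median of 13 CG dinucleotides against 7 over all windows. The comparison was not matched for this, so it does not show an excess of the letters. The letters GCCATNTT, a core of the YY1 motif, were in none of the 11 and in 6.05% of all windows. Methylation was not measured in these libraries.

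All 6 placed genes were higher in fetal liver, by 7.16-fold to 36-fold in the authors' deposited table, and 5 of them by more than 10-fold. The authors' adjusted p-value (DESeq) was under 0.05 for 6 of 6, where 4.12% of 35605 tested features were called higher and 0.129% lower. The 2 fetal liver libraries exceeded the 2 bone marrow libraries in every placed gene, which was so for 37.3% of 16501 features averaging 10 or more normalized reads. The median log2 ratio of the 6 genes was 4.32, beside 0.11 over 16517 features that averaged 10 or more and had reads in both groups. Folds of this size were not particular to imprinted genes. Rpsa (16.9-fold) and Pdia3 (20.4-fold in the authors' deposited table), picked below for their similar profiles, are on none of the imprinted lists used here. In sorted bulk samples, more cells that express a gene and more RNA per cell cannot be told apart. Fetal liver and adult bone marrow differ in both organ and stage, and these cannot be told apart here either.

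**Figure D1:**
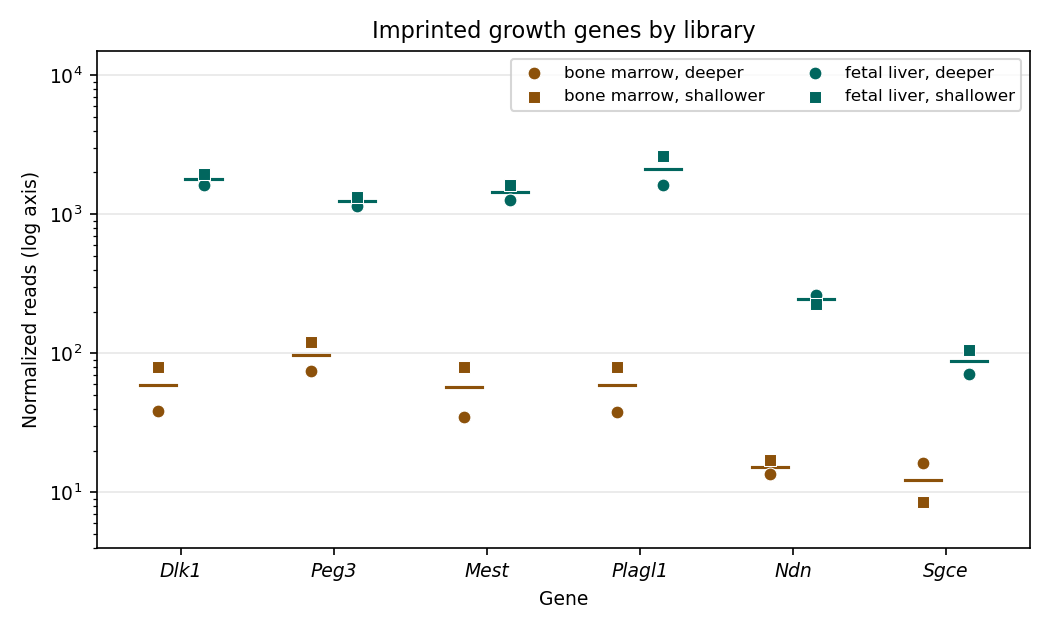
Normalized reads (log axis) of the 6 placed genes in each library, with circles for the deeper and squares for the shallower library of a group and a horizontal line at the authors' group mean. The fetal liver libraries lie above the bone marrow libraries for every gene, from 71.6 against 16.2 for the nearest pair of Sgce to 1620 against 80.1 for that of Dlk1.

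Plagl1 encodes a zinc-finger transcription factor that restrains the cell cycle and regulates other imprinted genes in the mouse, among them Igf2, H19, Cdkn1c and Dlk1. In bone marrow the deeper library held 37.8 normalized reads and the shallower 80.1, and in fetal liver the values were 1619 and 2627. Both fetal liver libraries stood far above both bone marrow libraries, and the shallower library was the higher one in each group. By the authors' deposited table its mean rose from 58.9 to 2123, or 36-fold (DESeq adjusted p = 1.14e-07), the highest fold of the 6 placed genes, and by limma the log2 change was 5.20 ± 0.64 (SE, 2 libraries per group).

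Dlk1 encodes a membrane protein with epidermal growth factor repeats, related to the Notch ligands, that marks hepatoblasts and holds preadipocytes undifferentiated. Its bone marrow libraries held 38.5 and 80.1 normalized reads, and the fetal liver libraries at 1620 and 1962. The groups did not overlap, and the fetal liver libraries lay closer together on the log scale than the bone marrow ones. By the authors' deposited table its mean rose from 59.3 to 1791, or 30.2-fold (DESeq adjusted p = 2.72e-11), and by limma the log2 change was 4.98 ± 0.61.

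Mest encodes an endoplasmic reticulum protein with an alpha/beta hydrolase fold and is widely expressed in embryonic mesoderm. Its bone marrow libraries had 35.1 and 80.1 normalized reads and its fetal liver libraries at 1261 and 1615. The ranges were apart, again with the shallower library higher in each group. By the authors' deposited table the mean rose from 57.6 to 1438, or 25.0-fold (DESeq adjusted p = 7.62e-08), and by limma the log2 change was 4.72 ± 0.58. In GENCODE M21, 23.1% of the exonic bases of Mest are shared with Copg2 on the opposite strand, and strand-specific counting is not stated, so reads of Mest and Copg2 may be mixed.

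Peg3 encodes a large zinc-finger protein that affects maternal behaviour, fetal growth and apoptosis in mice. It was at 75.0 and 120 normalized reads in the bone marrow libraries and at 1139 and 1334 in the fetal liver libraries. It had the highest bone marrow mean of the 6 placed genes in reads per gene, 97.5, and its fetal liver mean of 1237 was the fourth. The fold in the authors' deposited table was 12.7 (DESeq adjusted p = 7.02e-11), and by limma the log2 change was 3.69 ± 0.61.

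Ndn encodes necdin, a MAGE-family protein that binds E2F1 and p53 and promotes quiescence, also in hematopoietic stem cells of the mouse. Its libraries stood at 13.5 and 17.2 normalized reads in bone marrow, which are 20 and 6 reads, and at 263 and 226 in fetal liver. The libraries of a group were closest together for this gene, with log2 differences (shallower minus deeper) of 0.34 between the bone marrow and -0.22 between the fetal liver libraries. By the authors' deposited table its mean rose from 15.3 to 244, or 15.9-fold (DESeq adjusted p = 1.97e-08), and by limma the log2 change was 3.91 ± 0.39.

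Sgce encodes epsilon-sarcoglycan, a membrane protein of the complex that links the cytoskeleton to the matrix. It had 16.2 and 8.58 normalized reads in the bone marrow libraries, the latter being 3 reads, and 71.6 and 106 in the fetal liver libraries. By group mean it was the lowest of the 6 in both groups, and it was the only one with fewer normalized reads in the shallower than in the deeper bone marrow library. By the authors' deposited table the fold was 7.16 (DESeq adjusted p = 0.0164), and by limma the log2 change was 2.78 ± 0.47. With only the library of 3 reads as bone marrow its fold was 10.3, with a 95% exact Poisson interval of those reads from 3.54 to 50.2. Over the 4 pairs of a fetal liver and a bone marrow library its fold ran from 4.42 to 12.3, below the range of Plagl1, from 20.2 to 69.4, and of Dlk1, from 20.2 to 50.9.

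Igf2, the growth factor of the IGF axis, and Peg10, a gene derived from a retrotransposon that the mouse placenta needs, have no value of their own. Each label had 3 candidate rows, and the authors' adjusted p-value called all 3 rows higher for both genes. Features are sorted by p-value, so the candidate rows of a label have similar p-values, and their shared call does not measure either gene. In GENCODE M21, 62.8% of the exonic bases of Igf2 also belong to a read-through gene on the same strand, Gm49394, so a count of Igf2 could have been split.

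**Figure D2:**
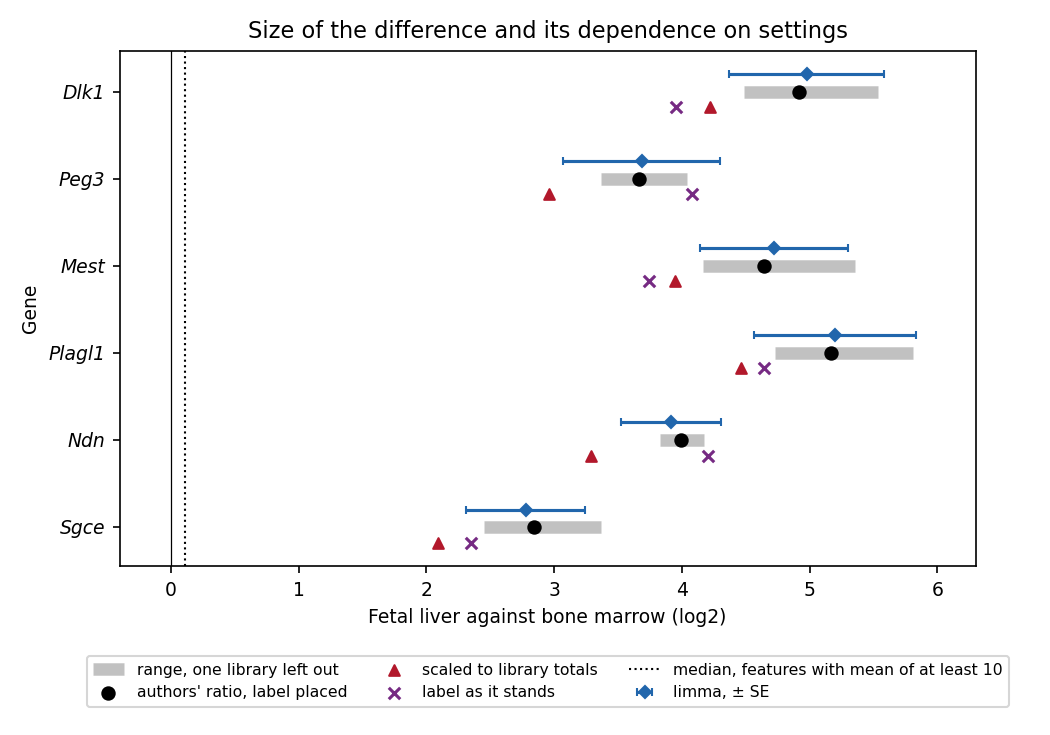
Difference of fetal liver against bone marrow (log2) for each placed gene as the authors' ratio at the placed label, the limma estimate ± SE, the range when 1 library was left out, the ratio after scaling to library totals and the ratio beside the label as it stands. Every value lies right of the dotted median (0.11) of features averaging 10 or more.

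The size of the folds depended on which bone marrow library was used, while every fold stayed above 1. With only the shallower and with only the deeper bone marrow library, the fold of Dlk1 was 22.4 and 46.5, that of Mest 18.0 and 40.9, and that of Plagl1 26.5 and 56.1. The shallower bone marrow library was higher than the deeper one for 5 of the 6 genes, by log2 differences from 0.34 for Ndn to 1.19 for Mest, where the median absolute difference between these libraries was 0.52 over 16241 features. Scaling by library totals in place of the authors' size factors lowered the folds to 22.1 for Plagl1, 18.6 for Dlk1, 15.4 for Mest, 9.76 for Ndn, 7.76 for Peg3 and 4.26 for Sgce. That scaling moved the median over features averaging 10 or more from 0.11 to -0.58 on the log2 scale, and with it limma called 1815 features higher and 2954 lower, where limma on the authors' size factors called 3172 and 474. All 6 genes were still called higher by limma, where 11.0% of features were called higher and 17.9% lower. They were also called when the deposited p-values were adjusted only over features averaging 10 or more (background 11.0% higher, 0.502% lower) and by limma on log2(normalized reads + 10) (21.2% and 4.51%). Limma called them without each library in turn as well. Its background was 18.9% higher and 1.75% lower without the deeper bone marrow library and 20.7% and 1.19% without the shallower one, and without the fetal liver libraries, deeper first, 14.6% and 4.16%, then 13.7% and 3.57%.

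Per kilobase of exon, the genes fell into a high, a middle and a low level in fetal liver. Length was the union of the exons of all transcripts of a gene in GENCODE M21, such as 10612 bases for Sgce and 3694 for Ndn. The annotation behind the counts is not given and the transcripts used were not determined, so the levels and their order depend on this choice. Mest stood at 364 normalized reads per kilobase, Dlk1 at 317 and Plagl1 at 271, and the ranges of neighbours in this order overlapped. Peg3 at 92.8 and Ndn at 66.1 followed, each apart from the gene before it, and Sgce was lowest at 8.36. In bone marrow the order was the same, from Mest at 14.6 per kilobase through Dlk1 at 10.5, Plagl1 at 7.54, Peg3 at 7.32 and Ndn at 4.15 to Sgce at 1.17. There the first 4 genes had overlapping ranges between neighbours, and only Ndn and Sgce stood apart. Ndn rested on 20 and 6 reads in the deeper and shallower bone marrow library, and Sgce on 24 and 3. In these libraries the stellate markers Gfap and Lhx2 stood at 7.69 and 10.2 and at 6.46 and 8.46 per kilobase. The mural marker Rgs5 stood lower, at 2.53 and 2.52. These markers were named after their values were seen. Whether the bone marrow levels, which are the denominators of the folds, exceed a background of reads was not tested.

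**Figure D3:**
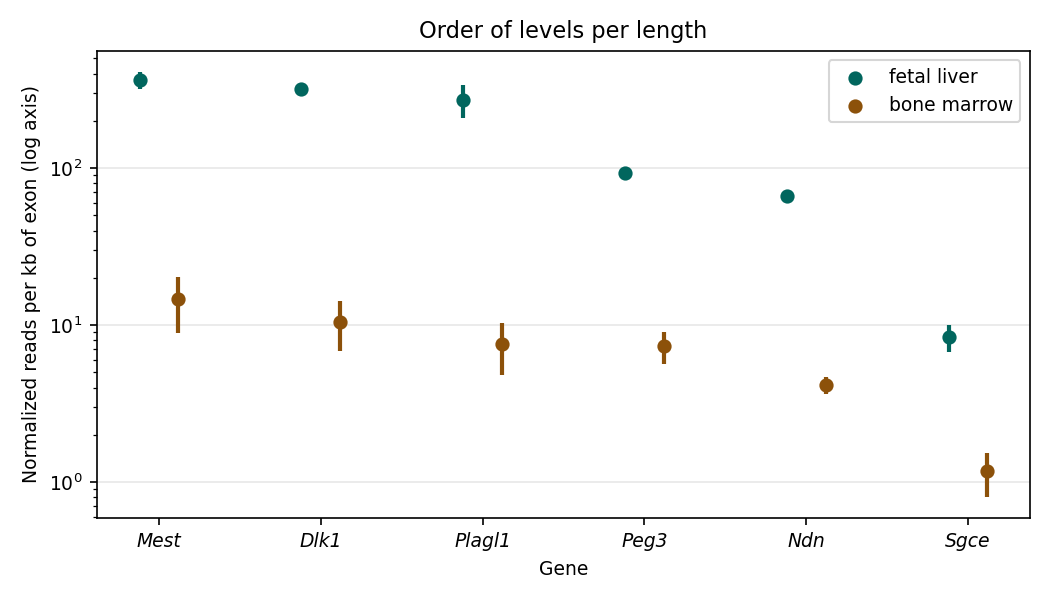
Normalized reads per kilobase of exon (log axis) of the 6 placed genes, ordered by fetal liver level, with points at group means and lines from the lower to the higher library. Mest, Dlk1 and Plagl1 lie at 271 to 364 per kilobase in fetal liver and Sgce at 8.36, and the same order runs at lower levels in bone marrow.

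Within their imprinted clusters, the genes did not move with all of their neighbours. Of 26 other imprinted genes in the clusters of the members, 19 were placed, 7 were called higher and 0 lower, counting unplaced genes by their posterior mass. Of the 26, 11 were counted with Igf2 and H19 in 1 region of chromosome 7, drawn broadly to take in Kcnq1, Cdkn1c and Cd81. In that region 3 were called higher, and whether these genes share an imprint with Igf2 was not examined. The 7 were H19, Cdkn1c, Cd81, Copg2 and Asb4, all placed, and Meg3 and Ube3a, not placed. Over all 35605 tested features, 4.12% were called higher and 0.129% lower. Beside Ndn on chromosome 7, Snrpn had means of 13.2 and 50.01 in bone marrow and fetal liver (DESeq adjusted p = 0.172), Peg12 11.8 and 27.7 (0.885) and Magel2, another MAGE-family gene, 27.6 and 11.7 (0.973) in the authors' deposited table. None of these neighbours was called, and the difference between Ndn and them was not tested. Snrpn was called by limma, at 1.83 ± 0.47 and an adjusted p of 0.0109, where limma called 19.2% of 16501 features higher.

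In the Dlk1 cluster on chromosome 12, Dio3, which encodes a deiodinase that inactivates thyroid hormone, averaged 9.62 and 17.5 by the authors' deposited table (DESeq adjusted p = 1). Rtl1, a paternally expressed retrotransposon-derived gene, was not placed and none of its candidate rows was called. The maternally expressed noncoding RNA gene Meg3 was not placed, and both of its candidate rows were called higher. In the Peg3 cluster on chromosome 7, neither Usp29, which starts head to head with Peg3, nor Zim1 was placed, and none of their candidate rows was called by the authors' adjusted p-value. Limma called 1 of the 5 candidate rows of Zim1 (candidate posterior 0.277, 3.95-fold, limma adjusted p = 0.0236).

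On chromosome 6, Asb4, a maternally expressed gene near Sgce and Peg10, averaged 24.5 and 160 in the authors' deposited table (6.52-fold, DESeq adjusted p = 0.0468), with fetal liver libraries at 229 and 90.4 normalized reads. Copg2, a coatomer subunit gene opposite Mest, averaged 70.6 and 713 in the authors' deposited table (10.1-fold, DESeq adjusted p = 0.000195), with the overlap noted above. H19, the maternally expressed noncoding RNA gene beside Igf2, averaged 43.4 and 749 in the authors' deposited table (17.2-fold, DESeq adjusted p = 0.00307), at a posterior of 0.951 that lies just over the threshold. Its bone marrow libraries were at 18.2 and 68.6 normalized reads and its fetal liver libraries at 757 and 740. Cdkn1c, the maternally expressed inhibitor of cyclin-dependent kinases in the same region, averaged 39.1 and 1387 in the authors' deposited table (35.4-fold, DESeq adjusted p = 2.80e-05).

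With only the shallower or only the deeper bone marrow library, the folds were 10.9 and 41.04 for H19, 23.1 and 76.01 for Cdkn1c and 7.12 and 17.3 for Copg2. That of Asb4 was 3.69 with only the shallower and 9.35 with only the deeper fetal liver library.

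**Figure D4:**
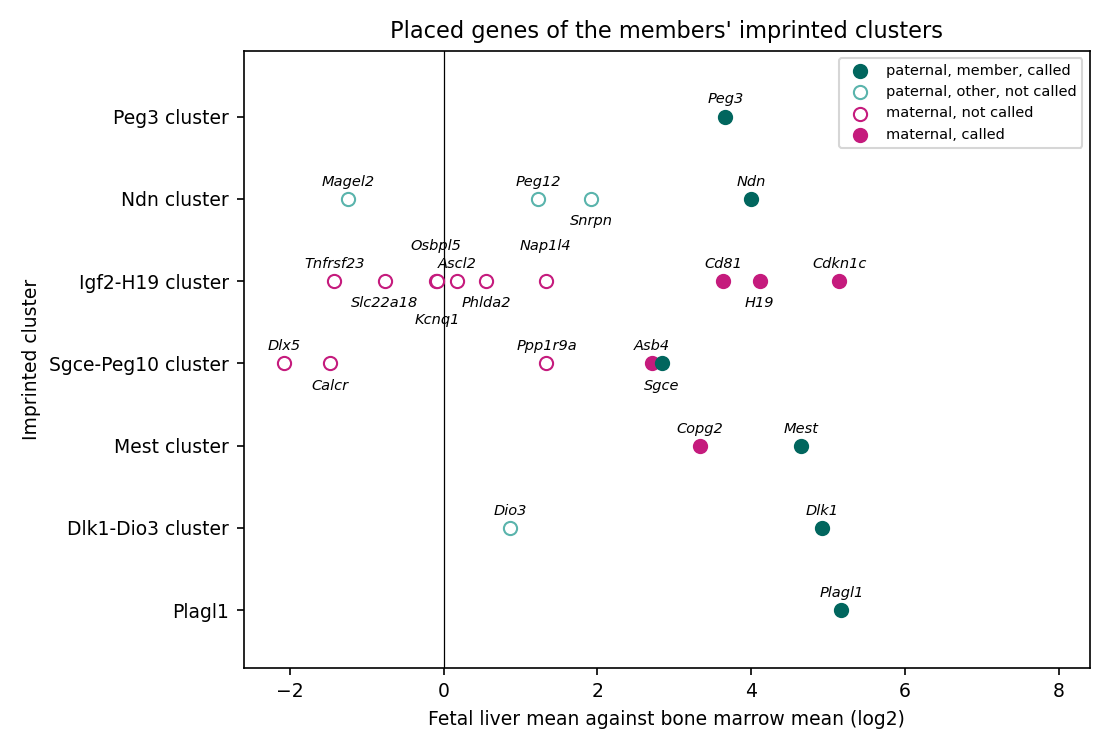
Log2 ratio of the fetal liver to the bone marrow mean for each placed gene of the imprinted clusters that hold the members, filled where the authors' adjusted p-value was under 0.05. The 6 members lie at 2.84 to 5.17, while neighbours such as Magel2 (-1.25) and Dlx5 (-2.07) lie left of 0.

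Other imprinted genes were described by their counts, and no test compared the lists. The authors' adjusted p-value called 4.12% of all tested features higher and 0.129% lower. Of 19 labelled paternally expressed genes outside the 8, 3 were called higher and 0 lower, and the 14 placed ones had a median log2 ratio of 1.05. Nnat, a small proteolipid gene of neurons, had means of 6.91 and 103 (14.9-fold, DESeq adjusted p = 6.71e-05), Slc38a4, an amino acid transporter gene, 24.8 and 189 (7.62-fold, 2.55e-05), and Airn, the noncoding RNA transcribed against Igf2r and not separable from it without strand, 17.5 and 95.9 (5.47-fold, 0.0468) in the authors' deposited table. Of 25 labelled maternally expressed genes, 9 were called higher and 0 lower, with a median of 1.33 over 19 placed ones. Only 6 of the 9 were placed, and Meg3, Grb10 and Ube3a were counted by their posterior mass, without a value of their own. Besides those named above, Gnas, which encodes the stimulatory G protein subunit, averaged 99.9 and 3048 in the authors' deposited table (30.5-fold, DESeq adjusted p = 3.05e-05). With only the shallower or only the deeper bone marrow library the folds were 20.9 and 56.4 for Gnas and 8.39 and 4.06 for Airn. At an unadjusted p under 0.05 by DESeq, 0 placed genes of either list were lower, and 0 by limma.

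Genes around IGF2, the ligand, were higher in part. Of 17 genes for IGF ligands, receptors, binding proteins and mRNA-binding proteins, 5 were called higher (Igfbp3 not placed) and 0 lower. The shares over all tested features were 4.12% higher and 0.129% lower. Igf1, the postnatal IGF ligand, had 20.3 and 40.03 normalized reads in the bone marrow and 242 and 361 in the fetal liver libraries. The fold of 10.01 by the authors' deposited table passed (DESeq adjusted p = 2.28e-05). Igfbp4 (9.10-fold), Igfbp5 (7.13-fold) and Igfbp7 (17.9-fold), which encode IGF binding proteins, were higher in the authors' deposited table too. The fold of Igfbp7 was 11.5 with only the shallower and 41.1 with only the deeper bone marrow library. The receptors were not called: Igf1r, which signals for both ligands, had means of 35.7 and 69.9 (DESeq adjusted p = 0.853, label placed at 0.971), and Igf2r, which clears IGF2, 106 and 379 (0.536) in the authors' deposited table. Limma, by which 19.2% of 16501 features were higher and 2.87% lower, called Igf2r, at 1.76 ± 0.52 and an adjusted p of 0.0234. Igf2bp2 was also called by limma only (1.54 ± 0.42, limma adjusted p = 0.0153) and was named after its values were seen.

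Partners of the other members differed among themselves. Beside them, 4.12% of all tested features were called higher and 0.129% lower by the authors' adjusted p-value. Limma called 19.2% and 2.87% of features averaging 10 or more. Of 10 Notch receptors and ligands, to which DLK1 is related, 1 was called higher, Jag1 (3.57-fold by the authors' deposited table, DESeq adjusted p = 0.0215), and the median was -0.67. Dll4 was lower at an unadjusted p under 0.05 by DESeq (0.315-fold, p = 0.0156 in the authors' deposited table) and by limma (adjusted p = 0.0479), and was named after its values were seen. Of 9 genes of the sarcoglycan and dystroglycan complex, which holds epsilon-sarcoglycan, 0 were called by the authors' adjusted p-value, 1 of the 7 placed was lower at an unadjusted p under 0.05 by DESeq (Sgca, means 24.4 and 4.14), and 1 was higher by limma (Dmd, 1.38 ± 0.43, adjusted p = 0.0308, both named after their values were seen). Of 9 relatives or partners of Plagl1 and Ndn, 3 were higher: the MAGE genes Maged2 (44.8-fold, label placed at 0.971) and Maged1 (13.8-fold), and Trp53 (3.79-fold), which encodes p53, in the authors' deposited table. With only the shallower or only the deeper bone marrow library the folds were 32.4 and 72.5 for Maged2 and 9.65 and 24.5 for Maged1. Of 11 factors that set or keep imprints, 1 was called, Trim28, the corepressor that works with ZFP57 (4.39-fold by the authors' deposited table, DESeq adjusted p = 0.00234, label placed at 0.965). Zfp445 was called by limma only (1.65 ± 0.54, limma adjusted p = 0.0403) and was named after its values were seen. The maintenance methyltransferase gene Dnmt1 had means of 73.4 and 116 and by the authors' deposited table was not called (DESeq adjusted p = 1).

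**Figure D5:**
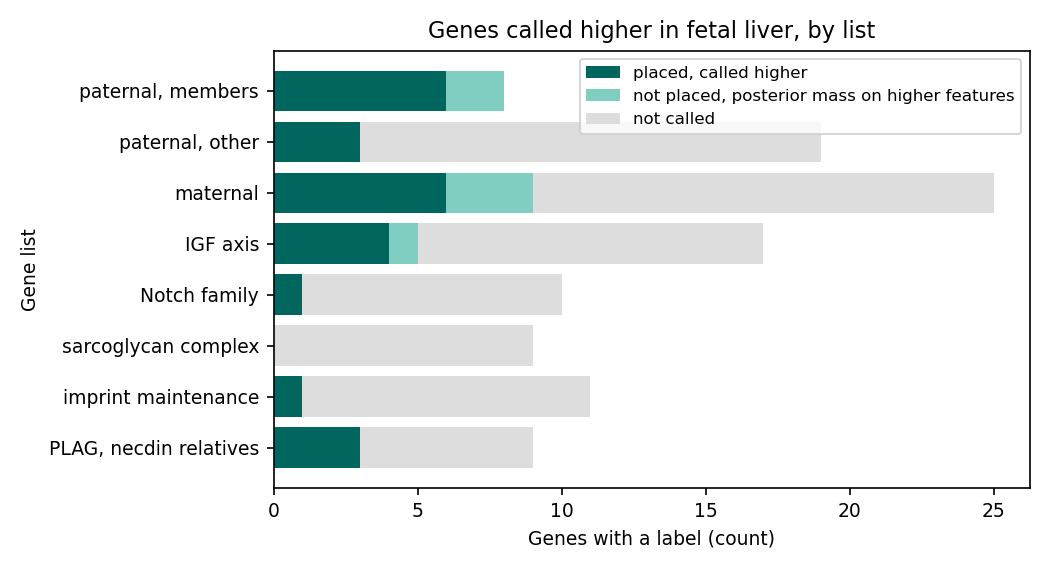
Number of genes with a label in each list that were called higher in fetal liver, dark where the label was placed and light where it was not placed but its posterior mass lay on called rows, with the rest in grey. The 6 placed members were called, beside 3 of 19 other paternally expressed and 9 of 25 maternally expressed genes and 4.12% of all features tested. All candidate rows of the 2 members not placed were called too, which is no measurement of these genes.

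Markers of the cell types that the sorted samples could hold were called in part, where 4.12% of all features were called higher and 0.129% lower. Of 11 hepatoblast markers other than Dlk1, 9 were placed and 3 were called higher: Alb (21.3-fold), Afp (25.8-fold) and Apoa2 (11.6-fold) in the authors' deposited table. Afp had 1 read in the shallower bone marrow library, and its fold was 95.3 with only that library (95% exact Poisson interval of that read, counting error only, 17.1 to 3764) and 14.9 with only the deeper one. Apoa2 also had 1 read in that library, and its fold was 14.0 with only that library as bone marrow (95% exact Poisson interval 2.51 to 553). It was at 15.8-fold with only the shallower and 7.35-fold with only the deeper fetal liver library. Summed over those 9, the bone marrow libraries held 144 and 100.1 normalized reads and the fetal liver libraries 737 and 703, while Hnf4a, the hepatocyte transcription factor, was not called, at means of 27.6 and 20.3. Of 12 pericyte and mural markers 5 were higher, among them Rgs5 (19.9-fold), Abcc9 (7.85-fold), Pdgfrb (6.21-fold) and Mcam (4.99-fold) in the authors' deposited table. Their sums over 11 placed genes were 313 and 389 in bone marrow and 1737 and 3508 in fetal liver. By the authors' deposited table Acta2 was not called (DESeq adjusted p = 0.121) and Tagln was, while limma called both, and in the shallower fetal liver library these held 1578 and 688 of the 3508 normalized reads. Without both, the sums were 294 and 346 against 1321 and 1241. Of 11 hepatic stellate markers 2 were higher, Hand2 (5.68-fold) and Colec11 (5.81-fold), and of 12 marrow stromal markers 3, Cxcl12 (6.72-fold), Prrx1 (6.01-fold) and Cdh11 (7.07-fold), by the authors' deposited table.

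The fold of Cdh11 was 5.11 with only the shallower and 11.5 with only the deeper bone marrow library. Stellate sums were 266 and 500.4 in bone marrow and 1470 and 3078 in fetal liver, of which Dcn, called by limma but not by the authors (DESeq adjusted p = 0.247 in their deposited table), held 921 and 2308 in fetal liver. Without Dcn the stellate sums were 235 and 289 against 549 and 770. The hepatoblast, mural, stellate and stromal lists also held placed markers with lower means in fetal liver, none of them called by DESeq or limma. By the authors' deposited table these were Hnf4a (0.735-fold), Krt8 (0.769-fold) and Fgb (0.868-fold) of the hepatoblast list. Of the mural list they were Des (0.486-fold) and Anpep (0.985-fold), and of the stellate list Des, Gfap (0.822-fold) and Lhx2 (0.918-fold). Of the stromal list they were Lepr (0.613-fold), Nt5e (0.706-fold) and Ebf3 (0.792-fold), in the authors' deposited table. Fgb averaged too few reads to be tested by limma. These, Dcn, Acta2 and Tagln were named after their values were seen. Stromal sums were 352 and 423 against 1072 and 1386. The 10 myeloid markers placed summed to 482 and 163 in bone marrow and 85.3 and 90.4 in fetal liver, and S100a9 was lower (0.0227-fold in the authors' deposited table, 0.0505 with only the shallower and 0.0146 with only the deeper bone marrow library). S100a8 (0.0042-fold, DESeq adjusted p = 0.149 in the authors' deposited table) was lower by limma only (limma adjusted p = 0.00513) and was named after its values were seen. In the deeper bone marrow library S100a8 held 166 and S100a9 118 of the 482 normalized reads. Of 10 endothelial markers Tie1 alone was called by the authors' adjusted p-value, lower at 0.194-fold in the authors' deposited table with its label placed at 0.957. Tie1 was not called under the alternative placement with an error rate of 0.001 in the large blocks of equal values. Of the erythroid markers, 0 of 11 were called in either direction by the authors' adjusted p-value (0 by limma, and 0 of 8 placed at an unadjusted p under 0.05 by DESeq). The endothelial sums were 343 and 243 against 203 and 218, and the erythroid ones 146 and 149 against 133 and 138. No placed marker of these lists was at 0 in a whole group. Which cells of the sort expressed the 6 genes, and the part of these markers in their folds, was not tested.

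The genes whose profile over the 4 libraries was most like the mean profile of the 6 placed genes were on none of the imprinted lists used here. By the root mean square difference of centred log2(normalized reads + 1) among 934 placed genes with a mean of at least 100, they were Rpsa (0.0813), Itgb1 (0.117), Xist (0.137), Rps19 (0.141) and Pdia3 (0.151), and their folds lay between 15.5 and 20.4 in the authors' deposited table. Rpsa and Rps19 encode ribosomal proteins, Itgb1 a subunit of matrix receptors, Xist the noncoding RNA of X inactivation and Pdia3 a disulfide isomerase of the endoplasmic reticulum. The 6 genes themselves lay from 0.256 (Ndn) to 0.879 (Sgce) from their own mean profile.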

How the data were processed

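RNA was sequenced from sorted cells of fetal liver (2 libraries) and adult bone marrow (2 libraries), grouped by sample title. The deposited table holds the authors' comparison as 1 row per feature. The submitters' processing notes list GSNAP, HTSeq, DESeq and the build mm9, with no version and no annotation. Per the file headers, its group means are a normalized read signal, the fold is the ratio of fetal liver over bone marrow means, and its p-value and adjusted p-value are the authors'. Columns of other samples numbered 0. A feature was called at an authors' adjusted p-value under 0.05.

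The 8 genes, the lists and the tests were chosen with earlier results of these data known. The rule for named genes took all 8, the called genes of each other list up to 4 by smallest adjusted p-value, 10 imprinted neighbours or IGF partners whatever their value, and the 5 nearest profiles.

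Labels (33465 for 37996 features, which are sorted by p-value) were placed by a hidden Markov model from the order of identifiers at equal p-values (error rate 0.001) and a LightGBM 4.6.0 score of gene structure (GENCODE M21) against level. Within the 2 large blocks of equal values (p-values of 1, and features without reads) 3 error rates were tried after the data were seen, 0.001, 1e-09 and 1e-200. The last was kept because it put the start of the features without reads where the identifiers start again, at 32237 labels of tested features. Of these, 62.6% reached a posterior of 0.95. The placement was tested on simulated data.

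Group means up to 10000 were split into whole reads of each library, and the split was unique for 34525 of 34525 bone marrow and 31919 of 31921 fetal liver means. Limma 3.58.1 (R 4.3.3) with a mean-variance trend and Benjamini-Hochberg adjustment was the alternative test, on log2(normalized reads + 1) of 16501 features averaging 10 or more. The depths are given with the results, and they cover counting error only. Promoter windows are from RefSeq on GRCm38.p6, and coordinates of the files' build are not printed.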

Additional observations from a re-analysis of the deposited data

How the results depend on the processing

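All 6 placed genes were called higher, and all candidate rows of Igf2 and Peg10 as well, under limma, with the authors' p-values adjusted only over features averaging 10 or more, with library totals, with log2(normalized reads + 10), without each library in turn and under each placement of the labels (for labels as they stand, the row beside each label). This includes the error rate of 0.001 within the large blocks of equal values, an alternative added after the data were seen, under which the same 6 genes had the same folds and 61.6% of 31906 labels were placed. With that rate Tie1 was not called, the only call that changed in the 15 lists. Features are sorted by p-value and called ones are mostly higher (1467 against 46 lower), so rows around a label tend to share its call. The same call under another placement, or at all candidate rows, is therefore no separate support.

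Over all features, where the authors' adjusted p-value called 1467 higher and 46 lower, limma called 3172 and 474, limma on log2(normalized reads + 10) 3495 and 744, and limma with library totals 1815 and 2954. Adjusting the authors' p-values only over features averaging 10 or more called 1817 and 83. Without each library in turn limma called 2254 to 3413 higher and 196 to 687 lower, with 2254 without the shallower fetal liver library and 196 without the shallower bone marrow library. A lone library left in a group is assumed to vary like those of the other group.

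No fold changed direction under the alternatives run. With group means + 10 the fold of Ndn was 10.04 and that of Sgce 4.41, which the added constant lowers by construction. Read without placing the labels again, each of the 6 lies beside another gene's values, with folds of 15.5 for Dlk1, 13.4 for Mest, 16.9 for Peg3, 25.0 for Plagl1, 18.4 for Ndn and 5.10 for Sgce. Without each library in turn the folds ran from 5.47 for Sgce to 56.1 for Plagl1. Sgce rests on 3 reads in the shallower bone marrow library.

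No paired analysis was possible because fetal liver and bone marrow share only 1 replicate number and the recovered libraries are not tied to numbers.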
